A study of Mus musculus with 43 samples.

Results

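The genes examined are 7 whose products form or place the programmed DNA breaks of meiosis: Spo11, Prdm9, Mei1, Mei4, Rec114, Hormad1 and Ankrd31. They were matched by GENCODE vM21 symbol to the gene identifiers of 10 mouse RNA libraries, which list 55401 genes, and all 7 were found. Their promoters were read in 33 lists of CUT&Tag peaks for 7 histone marks, in which a tethered transposase cuts at chromatin bound by an antibody. The study deleted Prmt1, the main enzyme of asymmetric arginine dimethylation, in male germ cells and asked what changed at postnatal day 7 (P7), when the testis holds spermatogonia but few meiotic cells. Prmt1-dKO mice carried the tamoxifen-inducible Cre Ddx4-CreERT2, active in germ cells, and Prmt1 lox/lox alleles with exons 4 and 5 floxed, and they received tamoxifen on 3 days. RNA came from whole testis at P7, with 3 WT and 3 Prmt1-dKO libraries, and from germ cells sorted at P7 by GFP, with 2 WT and 2 Prmt1-dKO libraries. The sorted controls labelled WT were Prmt1 +/lox carriers of the same Cre in the study's methods, and the whole testis libraries are labelled spermatogonia although their protocol describes total testis RNA. The CUT&Tag lists came from tubule cell suspensions of C57BL/6J WT mice at P7 and at P14, when spermatocytes have appeared, with 2 or 3 lists per mark and age. H4R3me2s alone also had 2 Prmt1-dKO lists at P7. The peak names of the H4R3me2s lists labelled P14 carry a code with a different day, so the age of those 3 lists rests on their labels. The P14 cells are called spermatocytes in one label and spermatogonia in another, and no RNA was measured at P14.

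Spo11 cuts both strands of DNA with its partner Top6bl (Gm960 in these tables), and without it homologous chromosomes neither pair nor recombine in spermatocytes. Cutting takes place on the chromosome axis, where Hormad1 recruits complexes built from Rec114, Mei4, Iho1 (Ccdc36 here) and Ankrd31, while Mei1 is needed for the same step. Prdm9, a histone methyltransferase with DNA-binding zinc fingers, chooses the sites by placing H3K4me3 and H3K36me3 there. Their transcripts are best known from germ cells about to enter meiosis and from early spermatocytes.

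In GENCODE vM21 on GRCm38, Spo11 is ENSMUSG00000005883.15 at chr2:172977700-172993576 on the plus strand and Prdm9 is ENSMUSG00000051977.16 at chr17:15543079-15564354 on the minus strand. Mei1 is ENSMUSG00000068117.10 at chr15:82069996-82126814 on the plus strand and Hormad1 is ENSMUSG00000028109.14 at chr3:95559677-95587671 on the plus strand. Mei4 is ENSMUSG00000043289.12 at chr9:81863670-82206007 on the plus strand, Rec114 is ENSMUSG00000074269.10 at chr9:58652850-58743964 on the minus strand, and Ankrd31 is ENSMUSG00000109561.1 at chr13:96748272-96910039 on the plus strand. They have between 2 (Hormad1) and 7 (Prdm9) annotated transcript starts each. A window of 250 bases upstream of a RefSeq transcript start on GRCm38.p6, the build of the mm10 peak lists, was found for 6 of the 7 genes. Spo11 was not among them. Motifs were searched on both strands: the E-box CACGTG, which is its own reverse complement, the E2F type GGCGGGAA (TTCCCGCC on the other strand) and the STRA8 type CNCCTCAG (CTGAGGNG on the other strand). Of 32851 RefSeq windows of this length, 6.02% held the E-box, 1.86% the E2F type and 6.42% the STRA8 type. The 3 upstream sequences below come from the genes whose windows held a motif match. Their promoter marks, described further on, also differ: Prdm9 was marked at both ages, Hormad1 mainly at P14 and Rec114 rarely. They lie at chr17:15564355-15564604 on the minus strand, chr3:95559427-95559676 on the plus strand and chr9:58741560-58741809 on the minus strand. Capitals mark motif matches, and each sequence ends at the base before the transcript start.

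Prdm9 upstream: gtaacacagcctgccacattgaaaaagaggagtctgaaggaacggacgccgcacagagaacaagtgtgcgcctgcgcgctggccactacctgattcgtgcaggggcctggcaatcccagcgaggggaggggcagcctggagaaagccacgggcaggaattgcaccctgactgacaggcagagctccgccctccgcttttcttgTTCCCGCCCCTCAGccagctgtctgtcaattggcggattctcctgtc

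Hormad1 upstream: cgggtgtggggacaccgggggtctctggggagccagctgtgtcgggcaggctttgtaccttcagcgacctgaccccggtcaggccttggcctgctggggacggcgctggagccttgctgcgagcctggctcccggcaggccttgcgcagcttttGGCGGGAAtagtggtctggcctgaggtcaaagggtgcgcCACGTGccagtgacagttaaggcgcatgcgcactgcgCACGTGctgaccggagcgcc

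Rec114 upstream: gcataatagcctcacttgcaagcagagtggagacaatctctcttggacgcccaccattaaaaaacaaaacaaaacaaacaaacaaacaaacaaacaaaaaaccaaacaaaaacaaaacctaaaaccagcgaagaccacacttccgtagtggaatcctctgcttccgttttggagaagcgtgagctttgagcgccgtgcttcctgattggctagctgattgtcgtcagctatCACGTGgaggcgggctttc

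Hormad1 held 2 E-boxes, at -57 and -20 from the start, and an E2F type motif at -96. An E-box and an E2F type motif occurred together in 0.167% of all windows. Rec114 held an E-box at -19. Prdm9 held an E2F type motif at -47 and a STRA8 type motif at -41, which overlap. The windows of Mei1, Mei4 and Ankrd31 held no match in these 250 bases. The RefSeq window of Mei1 belongs to its downstream start, whereas its H3K4me3 peaks lay at the upstream start. Prdm9 has a further RefSeq start downstream, whose window held no match either. Hormad1 had 19 CpGs in its window, Prdm9 13, Mei4 and Ankrd31 12 each, Rec114 10 and Mei1 8, against a median of 6 over all windows. A match describes the letters of a window and does not show that a factor binds there.

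Levels are given first as TPM, a share of all transcripts that accounts for gene length, so that genes can be compared with each other. In sorted WT germ cells Hormad1 and Rec114 were the highest of the 7. Hormad1 stood at 120 and 153 TPM and Rec114 at 124.6 and 134 TPM in the 2 libraries, so their ranges overlapped. Ankrd31 followed at 57.8 and 83.8 TPM, below both Rec114 libraries. Mei1 stood at 60.2 and 30.4 TPM, which overlapped Ankrd31. Prdm9 stood at 25.4 and 13.1 TPM, below both Mei1 libraries. Mei4 and Spo11 were not measured alike by the 2 WT libraries. Mei4 was at 32.9 TPM in WT replicate 1 and at 3.55 TPM in WT replicate 2. Spo11 was at 18.9 TPM in WT replicate 1 and at 0.09 TPM in WT replicate 2. No order can therefore be given between Prdm9, Mei4 and Spo11.

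In whole WT testis the 7 genes were all below 20 TPM. Rec114 was again high at 18.9 ± 1.18 TPM and Hormad1 stood at 14.6 ± 0.645 TPM (SD, n = 3 each), with no overlap between them. Mei1 at 5.39 ± 0.672 TPM, Ankrd31 at 5.03 ± 0.196 TPM, Prdm9 at 4.34 ± 0.927 TPM and Mei4 at 3.84 ± 0.782 TPM (SD, n = 3 each) formed a middle group whose neighbours overlapped. Spo11 was lowest at 0.59 ± 0.296 TPM (SD, n = 3). The mean TPM in sorted WT cells was between 4.44 times (Prdm9) and 16.1 times (Spo11) that in whole WT testis, but in sorted WT replicate 2 alone Spo11 (0.09 TPM) and Mei4 (3.55 TPM) were below their whole testis means of 0.59 and 3.84 TPM. That ratio carries no test, since the assays differ in library kit and in the cells sampled. In whole testis, fewer cells of a type and less RNA per cell cannot be told apart.

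**Figure D1:**
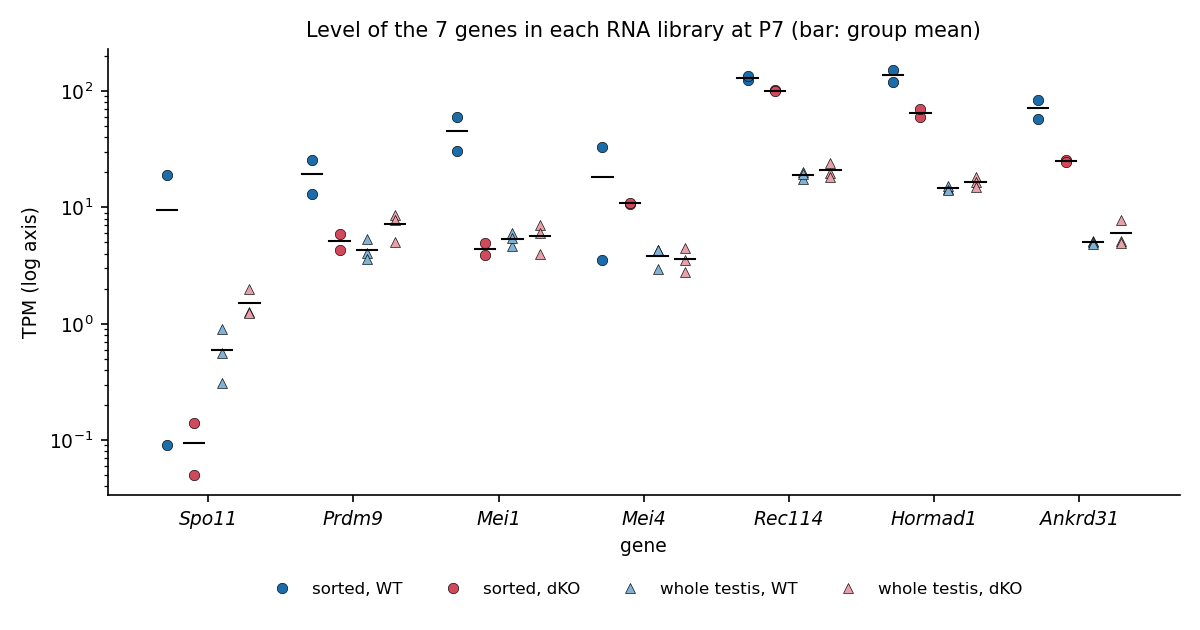
TPM of each gene in every RNA library at P7 on a log axis, with circles for sorted germ cells, triangles for whole testis and a bar at each group mean. The 2 sorted WT libraries of Spo11 lie at 18.9 and 0.09 TPM, while both sorted Prmt1-dKO libraries of Mei1, Prdm9, Hormad1, Ankrd31 and Rec114 lie below both sorted WT libraries.

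The 10 libraries held between 12396000 and 18547000 expected counts. The biological coefficient of variation estimated by edgeR was 0.155 in whole testis and 0.767 in sorted cells. Over 8-fold differences between WT libraries affected 22.5% of the genes tested in sorted cells and 1.11% in whole testis. In sorted cells, over 2-fold differences affected 41.9% of genes between the WT libraries and 14.5% between the Prmt1-dKO libraries. The sorted WT libraries had counts for 17134 and 15620 genes, although they were deeper than the sorted Prmt1-dKO libraries, which had counts for 21460 and 20235. The number of genes detected thus went with genotype, and its part in the values below was not tested. Prmt1 itself, the targeted gene, had 350 and 239 TPM in sorted WT libraries and 179 and 151 TPM in sorted Prmt1-dKO libraries. In whole testis it had 604 to 652 TPM in WT and 402 to 433 TPM in Prmt1-dKO, so the genotypes did not overlap in either assay. Counts over the whole gene check the labels only in part, because the floxed segment is exons 4 and 5. The study calls its replicates biological, and whether each library came from a separate animal is not stated in the labels, so the p-values below measure the spread between these libraries.

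The comparison of Prmt1-dKO with WT sorted germ cells asks whether loss of Prmt1 went with other levels of the break genes at P7. Values here are CPM, counts scaled to library size with TMM factors, which serve to compare libraries for 1 gene. Mei1 showed the largest difference of the 6 genes tested, and Ankrd31, Prdm9 and Hormad1 were also lower in both Prmt1-dKO libraries than in both WT libraries. No gene was called by edgeR, which called 0 of 16443 genes (0% lower) at an FDR below 0.05 together with a 2-fold change. At an unadjusted p below 0.05 and the same fold, 3 of the 6 genes were lower (Mei1, Ankrd31 and Prdm9), against 4.12% of all genes tested. DESeq2 called 4 of 7 genes lower (Mei1, Ankrd31, Prdm9 and Spo11) and none higher, with 2.71% of all genes called lower and 5.05% called higher. Limma-voom called none of the 6 and 0.912% of all genes lower. The 6 genes tested had a median log2 fold change of -1.04, beside a median of 0.15 over all genes tested. In 5 of the 6 (all but Mei4), both Prmt1-dKO libraries were below both WT libraries in CPM, as in 20.3% of all genes tested.

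Spo11 was not tested by edgeR in sorted cells, because only a single library passed the count filter. The counts were 386 and 2 in WT against 3 and 1 in Prmt1-dKO. WT replicate 2 was thus as low as the Prmt1-dKO pair, and the DESeq2 call (log2 fold change -6.32, SE 2.16, adjusted p = 0.0288) rested on WT replicate 1.

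Among the genes of the axial complexes, Ankrd31 had 178 and 242 CPM in WT and 94.2 and 86.1 CPM in Prmt1-dKO, a log2 fold change of -1.22 (SE 0.215, FDR = 0.0774 in edgeR and 6.23e-05 in DESeq2). Rec114 had 66.2 and 72.9 CPM in WT and 65.6 and 59.4 CPM in Prmt1-dKO, a log2 fold change of -0.15 (SE 0.218, FDR = 0.773 in edgeR). The genotypes of Rec114 did not overlap, but they differed by less than the spread that edgeR estimated. Mei4 had 64.4 and 6.96 CPM in WT and 25.4 and 22.9 CPM in Prmt1-dKO. Both Prmt1-dKO libraries of Mei4 therefore lay between the WT libraries, and the log2 fold change of -0.56 (SE 1.04) turned to 1.81 without WT replicate 1.

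Mei1, which is needed for break formation, had 180 and 93.6 CPM in WT and 14.4 and 16.4 CPM in Prmt1-dKO. The highest Prmt1-dKO library was far below the lowest WT library, with a log2 fold change of -3.15 (SE 0.401, FDR = 0.0774 in edgeR and 5.02e-11 in DESeq2). Hormad1, the axis protein, had 114 and 147 CPM in WT and 70.2 and 73.2 CPM in Prmt1-dKO, a log2 fold change of -0.86 (SE 0.209, FDR = 0.0835 in edgeR and 0.0111 in DESeq2), short of the 2-fold threshold. Prdm9, the gene of the hotspot methyltransferase, had 48.9 and 31.4 CPM in WT and 15.9 and 11.6 CPM in Prmt1-dKO, a log2 fold change of -1.55 (SE 0.475, FDR = 0.139 in edgeR and 0.0153 in DESeq2).

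The summed TPM of the 7 genes was 440 and 418 in sorted WT and 207 and 214 in sorted Prmt1-dKO. The 9 spermatocyte markers summed to 2736 and 2667 TPM in WT and to 1171 and 1196 TPM in Prmt1-dKO, and none was at 0 in any library. Much of that sum was Tex101, at 1576 and 1591 TPM in WT and 651 and 628 TPM in Prmt1-dKO, but all 9 had log2 fold changes below 0 in edgeR, with a median of -0.999. The 8 germ cell markers, which share Tex101 and Sycp3 with that list, summed to 2453 and 2527 TPM in WT and to 1573 and 1641 TPM in Prmt1-dKO, while their median log2 fold change was 0.13, with 6 above 0. The 10 markers of undifferentiated spermatogonia summed to 159 and 91.2 TPM in WT, with 3 of them at 0 in replicate 2, and to 327 and 400 TPM in Prmt1-dKO. The 8 markers of differentiating spermatogonia, among them Prdm9 itself, summed to 627 and 469 TPM in WT and to 565 and 569 TPM in Prmt1-dKO, so these overlapped. The 7 macrophage markers summed to 5.02 and 3.00 TPM in WT, with 6 of them at 0 in each library, and to 42.8 and 37.8 TPM in Prmt1-dKO, with 1 and 2 at 0. The 12 Sertoli cell markers summed to 326 and 313 TPM in WT and to 436 and 617 TPM in Prmt1-dKO. The part of these differences in the levels of the break genes was not tested.

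In whole testis none of the 7 genes was called lower. Spo11 was called higher in Prmt1-dKO, the 1 of 7 genes called there, with 5.32% of all genes tested called higher and 1.78% called lower. Its counts were 18, 8 and 20 in WT against 28, 27 and 59 in Prmt1-dKO, which is 1.20, 0.490 and 1.26 CPM against 2.04, 2.15 and 3.74 CPM. The genotypes did not overlap, with a log2 fold change of 1.43 (SE 0.426, FDR = 0.0455 in edgeR). The call was lost when any of the WT replicates, Prmt1-dKO replicate 1 or Prmt1-dKO replicate 3 was left out. It was also lost with scaling by germ cell markers and with a block on replicate number, although replicate numbers did not pair the samples. The log2 fold change stayed between 1.09 and 1.64 in all 12 alternatives. Prdm9 had 4.88, 4.35 and 4.59 CPM in WT and 8.17, 11.1 and 5.39 CPM in Prmt1-dKO, a log2 fold change of 0.83 (SE 0.264, FDR = 0.0580 in edgeR). Every Prmt1-dKO library of Prdm9 was above every WT library, and DESeq2 gave an FDR of 0.0487 with a fold short of 2. Hormad1 had 10.5, 11.2 and 10.9 CPM in WT against 13.7, 15.4 and 12.4 CPM in Prmt1-dKO (log2 fold change 0.35, SE 0.144). Ankrd31 had 15.4, 17.5 and 16.3 CPM against 21.3, 20.0 and 19.2 CPM (0.30, SE 0.124). Rec114 had 7.02, 7.84 and 8.04 CPM against 8.10, 12.3 and 8.18 CPM (0.32, SE 0.204). These 3 genes did not overlap between genotypes either, but their FDR was 0.123 to 0.314 in edgeR. Mei1 had 10.2, 13.7 and 12.6 CPM in WT and 15.6, 15.8 and 8.69 CPM in Prmt1-dKO, so that the genotypes overlapped. Mei4 was at a log2 fold change of -0.00023 (SE 0.248), with overlapping libraries. In 5 of the 7 genes all 3 Prmt1-dKO libraries were above all 3 WT libraries in CPM, as in 20.9% of all genes tested. The 7 Leydig cell markers summed to 789 to 891 TPM in WT testes and to 285 to 323 TPM in Prmt1-dKO testes, and the 6 peritubular myoid markers to 851 to 931 TPM and 295 to 522 TPM, so both lists were lower in Prmt1-dKO. The 12 Sertoli cell markers summed to 7082 to 7708 TPM in WT and to 4997 to 5443 TPM in Prmt1-dKO. The 9 spermatocyte markers summed to 207 to 255 TPM in WT and to 254 to 307 TPM in Prmt1-dKO. The 8 germ cell markers overlapped, at 638 to 753 TPM and 561 to 734 TPM. The 8 markers of differentiating spermatogonia did not, at 487 to 544 TPM in WT and 337 to 434 TPM in Prmt1-dKO, and neither did the 7 macrophage markers, at 86.7 to 99.0 TPM and 109 to 126 TPM. The part of these shares in the values above was not tested.

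Whether the genotype difference itself differed between sorted cells and whole testis was tested as an interaction in edgeR over all 10 libraries. The interaction passed at an FDR below 0.05 for 5 of the 7 genes, all lower in sorted cells relative to whole testis. In that direction 4.24% of 19608 genes tested passed. The difference of log2 fold changes was -3.20 for Mei1 (SE 0.500, FDR = 0.00284 in edgeR), -2.29 for Prdm9 (SE 0.524, FDR = 0.0162), -1.43 for Ankrd31 (SE 0.226, FDR = 0.00297) and -1.12 for Hormad1 (SE 0.239, FDR = 0.0118). For Spo11 it was -7.54 (SE 2.23, FDR = 0.0466), but -1.04 (FDR = 0.657) without sorted WT replicate 1, and its call was lost without any single library other than sorted WT replicate 2. The call for Prdm9 was lost without sorted Prmt1-dKO replicate 2 (FDR = 0.0664) and that for Hormad1 without sorted Prmt1-dKO replicate 1 (FDR = 0.0515), while Mei1 and Ankrd31 passed in all 12 alternatives. For Rec114 (-0.38, SE 0.325, FDR = 0.490) and Mei4 (-0.48, SE 1.02, FDR = 0.850) edgeR found no such difference. The value for Mei4 was unstable, from -1.32 to 1.90 over the 12 alternatives, of which 1 reversed its direction. The spread is pooled over assays in this fit, although the biological coefficient of variation was 0.155 in whole testis and 0.767 in sorted cells. The interaction FDR values may therefore be too small for the spread of the sorted libraries, where edgeR alone called 0 of 16443 genes. How far this moved the 5 calls was not tested. The sorted controls also differ from the whole testis controls in their alleles.

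**Figure D2:**
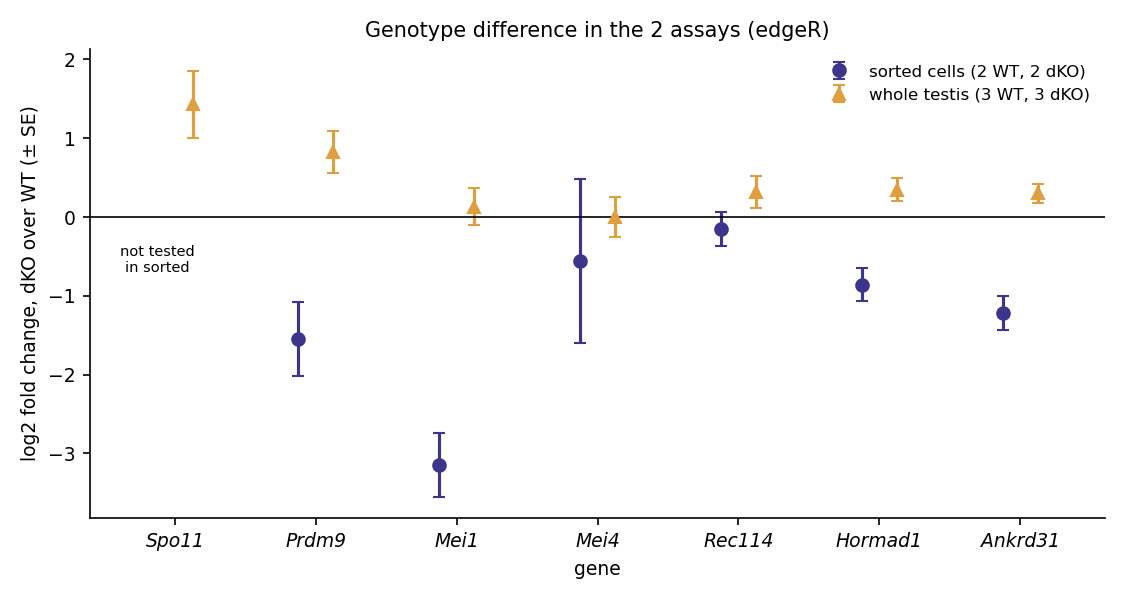
Log2 fold change of Prmt1-dKO over WT with its SE from edgeR, with circles for sorted cells and triangles for whole testis. Mei1 lies at -3.15 in sorted cells and at 0.13 in whole testis, Rec114 lies at -0.15 and 0.32, and Spo11 was not tested in sorted cells.

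A list of 15 further genes was also read, which mixes genes of break formation with others, such as Mcmdc2, a gene of break repair. In sorted cells edgeR called none of the 14 tested, and DESeq2 called 5 of 15 lower and 1 higher, against 2.71% and 5.05% of all genes. Those lower were Ccdc36 (Iho1), the partner of Rec114 and Mei4, Hormad2, an axis protein related to Hormad1, Zcwpw1 and Zcwpw2, readers of histone methylation related to each other, and Ctcfl, a testis paralogue of the insulator protein CTCF. For Ccdc36 the counts were 1332 and 1258 in WT against 478 and 307 in Prmt1-dKO, with a DESeq2 log2 fold change of -1.45 (SE 0.382, adjusted p = 0.00243). Zcwpw1, which reads the marks that Prdm9 writes, was at -1.14 (SE 0.147, adjusted p = 4.16e-12 in DESeq2), Zcwpw2 at -2.20, Hormad2 at -2.08 and Ctcfl at -1.27. Mcmdc2, which acts in repair of meiotic breaks, moved the other way, from 25 and 91 counts in WT to 338 and 278 in Prmt1-dKO (2.67, SE 0.924, adjusted p = 0.0314 in DESeq2). Gm960 (Top6bl), the partner of Spo11, was counted 347 and 700 times in WT against 241 and 212 in Prmt1-dKO (-0.94, SE 0.620, adjusted p = 0.338 in DESeq2). In whole testis edgeR called 2 of the 15 higher and none lower, against 5.32% and 1.78% of all genes. They were Mcmdc2, with 8, 8 and 19 counts in WT and 23, 37 and 38 in Prmt1-dKO (FDR = 0.0282), and Morc2b, a MORC family ATPase, with 1, 0 and 0 counts in WT and 10, 19 and 12 in Prmt1-dKO (FDR = 0.00472). The interaction passed in edgeR for 5 of the 15, namely Ccdc36, Hormad2, Zcwpw1, Zcwpw2 and Ctcfl, all lower in sorted cells, against 4.24% of all genes.

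Meiotic entry is switched on by Stra8 with its partner Meiosin (Gm4969 here). Stra8 had 131 and 62.9 TPM in sorted WT and 82.2 and 82.1 TPM in sorted Prmt1-dKO, so that the Prmt1-dKO libraries lay between the WT libraries, with a log2 fold change of -0.0012 (SE 0.289, FDR = 0.998 in edgeR). Gm4969 had 80.1 and 57.8 TPM in sorted WT and 18.4 and 13.1 TPM in sorted Prmt1-dKO, a log2 fold change of -1.78 (SE 0.322, FDR = 0.0774 in edgeR and 3.07e-05 in DESeq2). Of 12 meiotic entry genes, DESeq2 called 4 lower (Gm4969, Smc1b, Meioc and Ythdc2) and none higher in sorted cells, against 2.71% and 5.05% of all genes, and edgeR called none in either assay. Of 11 genes for repressors of germline genes, which include the E-box and E2F site binding complex of Mga, Max and E2f6, DESeq2 called 2 higher in sorted cells (E2f6 and Cbx3), against 5.05% of all genes, and edgeR called none. Over the 10 libraries, with log2 CPM centred within each assay, the genes most like the mean profile of the 6 break genes tested in both assays were Mroh1 (r = 0.993), Fam118a (0.987), Spag4 (0.987), Stk25 (0.979) and Vipas39 (0.976), out of 14171 genes. The break genes themselves had r from 0.248 (Mei4) to 0.946 (Mei1) with that mean, of which each is a part. These values describe libraries that share their preparation and carry no test.

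The promoter lists ask which histone marks lay at these genes in WT cells at P7 and P14. A gene was counted as marked in a list where a peak summit lay within 3000 bp of any of its GENCODE transcript starts. Peaks were called in each sample alone and read depth is unknown, so only presence and rank within a list are used. With 2 against 2 lists an exact permutation test cannot go below p = 0.333, and with 2 against 3 or 3 against 3 lists not below 0.2 or 0.1, so no test was made. In the 33 lists Prdm9 was marked most often, in 27, followed by Spo11 in 20, Mei4 in 16, Mei1 in 14, Hormad1 in 11, Ankrd31 in 9 and Rec114 in 8. The order depends on the settings: within 1000 bp Mei4 (16) was ahead of Spo11 (15), and at q of at most 0.01 Prdm9 was marked in 19 lists, Spo11 in 8, Mei4 in 7, Ankrd31 in 6, Hormad1 in 5, Mei1 in 4 and Rec114 in 2. Of the 15 WT lists at P7 and 16 at P14, Prdm9 was marked in 11 and 15, Spo11 in 6 and 13, Mei4 in 3 and 13, Mei1 in 6 and 7, Hormad1 in 2 and 8, Ankrd31 in 2 and 7 and Rec114 in 1 and 6. The share of all genes marked was also higher at P14 for most marks, as given below. The window of Prdm9 also holds the start of a processed pseudogene, Gm6686.

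H3K4me3, the mark of active promoters, was found at 3 and 4 of the 7 genes in the P7 lists and at 6 and 7 in the P14 lists. Over all 22028 protein-coding genes the share was 62.5% and 61.6% at P7 and 64.2% and 65.5% at P14, or 62.0% and 61.6% against 59.1% and 59.9% with lists trimmed to equal length. Spo11 and Mei1 had no H3K4me3 peak in either P7 list and had a peak in both P14 lists, as did 2.01% of all protein-coding genes. Of the 8009 genes without a peak in either P7 list, 5.53% had a peak in both P14 lists, while of the 3 break genes without a P7 peak (Spo11, Mei1 and Rec114) 2 did so. Both P7 lists held peaks at Prdm9, Mei4 and Ankrd31. The counts among the 7 genes were the same for peaks with q of at most 0.01, for a window of 1000 bp and for lists trimmed to equal length.

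The Spo11 peaks at P14 lay at chr2:172979546-172980224 and chr2:172979613-172980340 (mm10), with summits 180 and 133 bp downstream of an annotated transcript start. Their fold enrichments, 6.81 and 7.30, were above those of 80.4% and 81.5% of the peaks in their lists. The Mei1 peaks lay at chr15:82070114-82070610 and chr15:82070157-82070569, 285 and 354 bp downstream of the upstream start, above 45.9% and 54.4% of peaks. Hormad1 had a peak of 200 bp in P7 list 2 and none in P7 list 1, but peaks of 993 and 1145 bp at P14. At Ankrd31 the peak was 446 and 443 bp wide at P7 and 735 and 975 bp wide at P14, and its fold enrichment was above that of 51.0% and 73.5% of the peaks of its P7 lists and of 97.9% and 99.2% of those of its P14 lists. The P14 lists were longer (25627 and 26635 peaks against 19162 and 18465), so ranks at the 2 ages are not on the same scale. At Prdm9 the peaks were 1285 and 1336 bp wide at P7 and 1246 and 1347 bp wide at P14, so width did not separate the ages there. Mei4, with a peak at chr9:81863433-81864293 in P7 list 1, ranked above 96.5% and 67.7% of others at P7 and 91.3% and 97.8% of them at P14. Rec114, whose E-box is printed above, had a single H3K4me3 peak, of 308 bp at chr9:58741484-58741791 in P14 list 2.

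**Figure D3:**
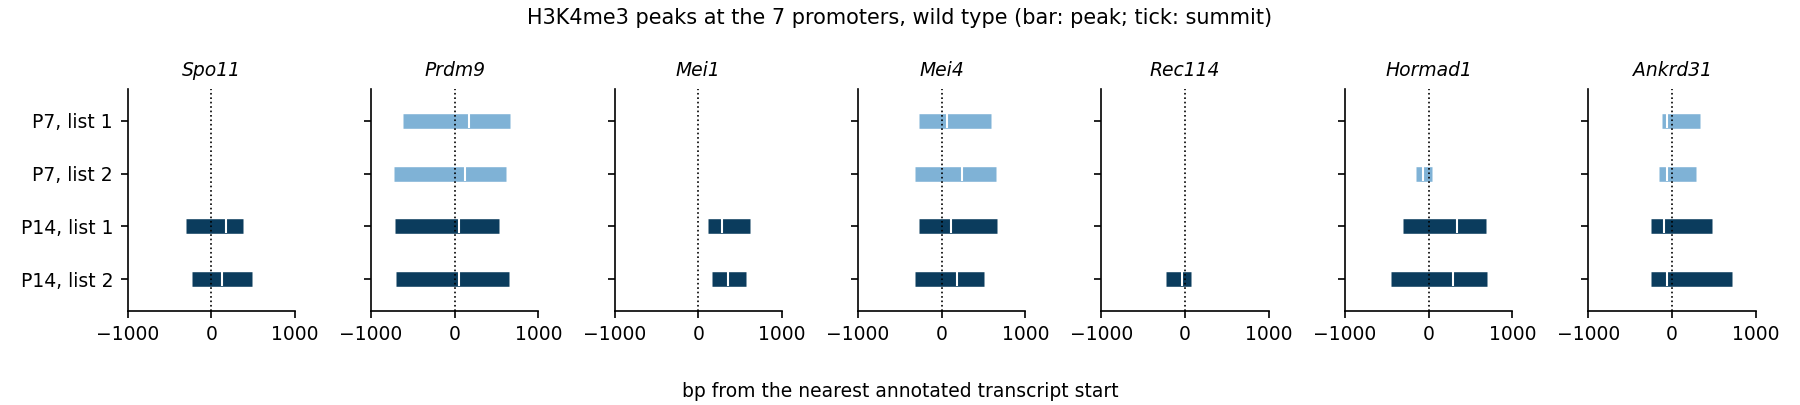
H3K4me3 peaks of each WT list at the 7 genes, as bars over distance in bp from the nearest annotated transcript start with a tick at the summit. Spo11 and Mei1 have peaks in the P14 lists only, the peaks of Hormad1 and Ankrd31 are wider at P14, and Rec114 has 1 peak of 308 bp.

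The absence of H3K4me3 peaks at P7 stood beside sizeable RNA levels. Among 7878 protein-coding genes with a mean of at least 10 TPM in sorted WT cells at P7, 96.9% had an H3K4me3 peak in both P7 lists and 2.23% in neither. Of the 6 break genes at that level (all but Spo11), 3 had a peak in both P7 lists, Mei1 and Rec114 had none and Hormad1 had a peak in one list. Among 1870 genes with a mean of at least 100 TPM, 0.963% had no peak in either P7 list, or 18 genes, of which Rec114 was one. These levels were chosen after the values had been seen. RNA and chromatin came from different cell preparations, sorted germ cells against tubule suspensions, and the part of this in the comparison was not tested.

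H3K27ac, a mark of active promoters and enhancers, was found at 4 and 3 of the 7 genes at P7 and at 6 in each P14 list. Its share over all protein-coding genes also moved, from 37.8% and 40.7% to 56.0% and 55.1%. Mei4 and Ankrd31 had a peak in both P14 lists and neither P7 list, as did 7.89% of genes. At q of at most 0.01 only Prdm9 was marked at P7 in either list, against 6 genes in each P14 list. The shares over all genes at that q were 14.8% and 20.1% at P7 and 46.2% and 44.9% at P14, so that the P7 count was near the background. The P7 H3K27ac peaks of Spo11 lay upstream of its most upstream start, at -2675, -797 and -84 bp. The P14 lists held peaks 97 bp downstream and at -235 bp of later starts, close to the H3K4me3 peaks, and P14 list 1 also held a peak at -785 bp of the most upstream start. At Ankrd31 the P14 peaks ranked above 99.2% and 99.5% of the peaks of their lists.

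Of the arginine marks, H4R3me2a, the asymmetric mark that Prmt1 itself places, was found at 2, 0 and 0 of the 7 genes in the P7 lists (Prdm9 and Mei1) and at 4 in each of the 3 P14 lists, while its share over all genes was at most 20.2% at P7 and between 44.7% and 50.9% at P14. Prdm9 alone was marked in all 3 P14 lists, with fold enrichments of 5.05, 5.79 and 5.88 at its strongest peaks. At q of at most 0.01 H4R3me2a was found at 1, 0 and 0 genes at P7 and at 1, 2 and 2 at P14. The shares over all genes at that q were 1.97%, 1.90% and 2.91% at P7 and 17.0%, 24.4% and 22.6% at P14. No break gene went from no P7 list to every P14 list for H4R3me2a or H3R8me2a, against 8.88% and 12.7% of all genes. For H3R2me2a 1 did so (Mei4, against 21.2%), and for H4R3me1 1 did so (Rec114, against 9.75%), with summits 1609 and 1744 bp downstream of the start used above and a further peak 49 bp from another start in list 1. Neither Mei4 for H3R2me2a nor Rec114 for H4R3me1 was marked in a P14 list at q of at most 0.01. H3R2me2a was found at 2 genes in each P7 list and at 3 and 4 in the P14 lists, with 24.3% and 24.1% of all genes at P7 and 58.1% and 61.3% at P14. Prdm9 had H3R2me2a peaks near its start in every list at both ages. Spo11 also had a peak in every list, but its P7 summits lay 1336 and 1195 bp from an internal start, and its strongest P14 summits 118 and 53 bp from the start marked by H3K4me3. H3R8me2a was found at 2 genes in each P7 list and at 6 and 4 in the P14 lists, with 21.0% and 21.4% of all genes at P7 and 44.8% and 45.2% at P14. H4R3me1 was found at 2 genes in each P7 list and at 3 in each P14 list, near the shares over all genes of 25.2% and 22.2% at P7 and 40.8% and 42.6% at P14.

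H4R3me2s, the symmetric mark placed by other enzymes, was found at 1 and 2 of the 7 genes in the WT P7 lists, at 1 and 4 in the Prmt1-dKO P7 lists and at 4, 3 and 2 in the P14 lists. Spo11 and Mei4 went from no P7 list to every P14 list, as did 2% of genes, but the Spo11 summits lay at -2139, 1210 and 24 bp from its nearest starts, near 3 different transcripts. The Mei4 summits lay at 219, 20 and 57 bp. Over all genes the share was 32.9% and 33.6% in WT and 27.4% and 23.0% in Prmt1-dKO at P7, and 41.8%, 31.5% and 34.1% at P14, so that the P14 counts were near the background. The 4 genes marked in Prmt1-dKO list 2 were Spo11, Mei1, Rec114 and Hormad1, of which only Mei1 and Hormad1 were marked within 1000 bp, and Prdm9 was the gene marked in Prmt1-dKO list 1. At q of at most 0.01 no break gene had an H4R3me2s peak in any of the 7 lists, but few genes did, between 0.808% and 12.7% per list.

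**Figure D4:**
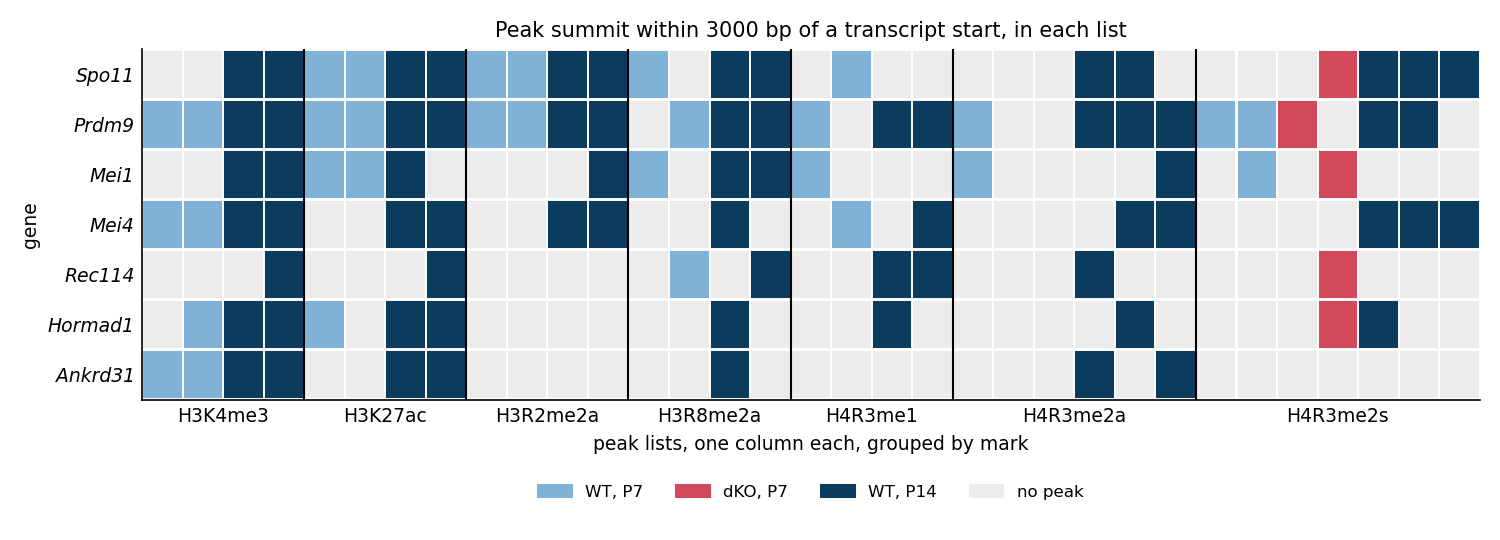
Presence of a peak summit within 3000 bp of a transcript start, for each gene (rows) in each of 33 lists (columns, grouped by mark and coloured by genotype and age). H3K4me3 fills 3 and 4 of 7 rows at P7 and 6 and 7 at P14, and Prdm9 is marked in 27 of 33 lists.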

How the data were processed

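RNA was measured in 10 libraries and histone marks in 33 peak lists, grouped by the sample labels. Per the labels and the study's methods, the authors trimmed reads with fastp 0.23.2, mapped them to mm10 and summarised genes with RSEM, for which the sources used here give neither version nor annotation. The expected counts the authors deposited are not normalized, and the TPM and FPKM they deposited beside them are scaled within each library. Peaks were called by the authors sample by sample, using MACS2 2.1.0. Each deposited list gives a fold enrichment (a ratio to local background), a −log10 p and a −log10 q per peak, and read depth is unknown.

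Of 55401 gene identifiers, 260 had no match in GENCODE vM21 once versions were ignored and 55141 had one. The expected counts were taken as whole numbers and TMM scaled after filterByExpr had removed low genes (its minimum count was 10 and its minimum total 15). Genotypes were compared within each assay by quasi-likelihood in edgeR 4.0.16 (R 4.3.3). Calls needed an FDR under 0.05 by Benjamini-Hochberg over all genes tested, together with a 2-fold change. The interaction of assay and genotype was called at FDR below 0.05 alone. DESeq2 1.42.0, which the study used, and limma-voom (limma 3.58.1) were alternatives, as were other scaling, no filter, a replicate block and leaving out each library. The edgeR step was tested on simulated counts with 200 changed genes. In whole testis (16554 genes) it recovered 38 of 67 genes changed by 2-fold and all 67 changed by 4-fold. In sorted cells (16443 genes) it recovered 1 of 67 and 25 of 67. Of genes changed by 8-fold it recovered all 66 in whole testis and 33 of 66 in sorted cells. The changed genes were drawn from those with higher mean counts, and a true 2-fold change lies at the call threshold itself. TPM was used for levels and FPKM as their alternative. CPM uses TMM, and log2 CPM a prior count of 2.

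Genes named are the 7 break genes, Prmt1, Stra8, Gm4969 and the 5 genes most like the mean profile. From the list of 15 further genes, those called by edgeR or DESeq2 in either assay are named, plus Ccdc36 and Gm960. E2f6, Cbx3, Smc1b, Meioc and Ythdc2 were named after their values were seen. The genes and lists were chosen with earlier results of these data known. Promoter sequences come from RefSeq on GRCm38.p6. Python 3.11.15 with pandas 2.3.3 and matplotlib 3.10.9 was used for the other steps.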

Additional observations from a re-analysis of the deposited data

Results flagged for a closer look

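By edgeR's interaction test over 10 libraries, 5 genes passed for a genotype difference that differed between sorted germ cells and whole testis. The test pools the unequal spread of the 2 assays, so its FDR values may be too small. In that direction, lower in sorted cells, 4.24% of 19608 genes tested passed. On the log2 scale the difference of differences, sorted minus whole testis, was -7.54 for Spo11, -3.20 for Mei1, -2.29 for Prdm9, -1.43 for Ankrd31 and -1.12 for Hormad1. In sorted cells both Prmt1-dKO libraries were below both WT libraries for Mei1, Prdm9, Ankrd31 and Hormad1, as in 20.3% of all genes tested. In whole testis all 3 Prmt1-dKO libraries were above all 3 WT libraries for Spo11, Prdm9, Ankrd31 and Hormad1, as in 20.9% of all genes tested. For Spo11 the difference rested on sorted WT replicate 1, without which it was -1.04, and it was called only with all libraries or without sorted WT replicate 2 when single libraries were left out. Samples that stand apart within a group could not be tested, since no group held 4 or more samples.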

How the results depend on the processing

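In whole testis the 1 gene called became 0 with the replicate block and with scaling by germ cell markers, and ranged from 0 to 1 when single libraries were left out. The gene called without Prmt1-dKO replicate 3 was Prdm9 and not Spo11. In sorted cells the 0 genes called became 4 with DESeq2 and ranged from 0 to 5 when single libraries were left out. Leaving out a WT library leaves a lone WT sample that is assumed to vary like the Prmt1-dKO pair. It gave 4 lower and 1 higher (Mei4) without WT replicate 1, and 4 lower without WT replicate 2, where edgeR called 2146 of 17942 and 2029 of 18164 genes lower, against 0 without either Prmt1-dKO replicate. The interaction count of 5 ranged from 3 to 6, with 3 without sorted Prmt1-dKO replicate 1 (Spo11 and Hormad1 lost) or replicate 2 (Spo11 and Prdm9 lost), where 588 of 21556 and 441 of 21459 genes passed in that direction, and 6 without sorted WT replicate 2, where 2354 of 21486 did. Replicate numbers did not pair the samples (correlations of deviations -0.22 to 0.08 in whole testis and 0.02 in sorted cells). With the replicate block no gene was called in sorted cells.

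Directions of values near 0 turned. In whole testis Mei1 ranged from -0.018 to 0.37 when single libraries were left out and was -0.018 and -0.011 without Prmt1-dKO replicates 1 and 2, and Mei4 was 0.016 with limma-voom, 0.0031 with the replicate block, 0.0017 with germ cell scaling, and 0.021, 0.12 and 0.13 without WT replicates 1 and 2 and Prmt1-dKO replicate 2 (range -0.18 to 0.13). In sorted cells Mei4 was 0.18 with limma-voom and with the replicate block and ranged from -1.40 to 1.81, the latter without WT replicate 1, and from -1.32 to 1.90 in the interaction, and Rec114 was 0.046 with germ cell scaling, which moved the median of all genes from 0.15 to 0.35 and sums counts over 8 markers including Tex101. Mei1, Prdm9, Hormad1 and Ankrd31 stayed below 0 in sorted cells in all 10 alternatives.

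The P14 minus P7 difference in genes marked per list moved for H3K27ac to 5 at q of at most 0.01 and for H3R2me2a to 2.5 at 1000 bp. With lists trimmed to equal length H3R2me2a gave 0.5, H3R8me2a gave 1, H4R3me1 gave 0 and H4R3me2a gave 2.33. At q of at most 0.01 it was 1.33 for H4R3me2a and 0 for H4R3me2s. The Prmt1-dKO minus WT difference for H4R3me2s at P7, 1 in the main count, ranged from -0.5 to 2.5 when single lists were left out and was -0.5 without Prmt1-dKO list 2. Within 1000 bp the lists marked 1 and 2 genes in each genotype, a difference of 0, and with lists trimmed to equal length the difference was 0.5. The cause of these shifts was not tested. Shares of the summed TPM by gene moved by less than 1 SD with FPKM. The spread between sorted libraries, which were as deep as those of whole testis, limits the sorted comparison. In it 1 of 67 simulated 2-fold changes and 33 of 66 simulated 8-fold changes were called. Unknown read depth limits the peak lists.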
